A study of Homo sapiens with 8 samples.

Results

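The 8 genes described here, PHOX2A, HAND2, GATA2, GATA3, ISL1, TBX2, TFAP2B and INSM1, encode transcription factors of the noradrenergic (adrenergic) lineage of neuroblastoma cells. They were taken by gene symbol from a count table of 60659 genes. The cells of the 8 libraries were SK-N-SH, a human neuroblastoma line known to hold neuroblastic (N-type) and substrate-adherent (S-type) cells. The libraries were made from total RNA depleted of ribosomal RNA. The 4 groups had 2 libraries each, which the labels call biological replicates, and all of them received all-trans retinoic acid (ATRA) at 10 µM for 24 h. In the overexpression experiment, parental cells served as the control for cells carrying FLAG-tagged ZMYND8 (ZMYND8 OE), with doxycycline (Dox) in either group. According to the study's methods the ZMYND8 cassette was inducible, came in by lentivirus and was selected with G418, whereas the labels name no vector for the parental cells. In the knockdown experiment, ZMYND8 KD cells were compared with KD control cells. The labels name no Dox in these groups, and the methods describe knockdown by lentiviral shRNA with puromycin selection. They give the puromycin dose only for SH-SY5Y and neural stem cells, and for SK-N-SH cells the paper describes a ZMYND8 knockout. The vector and the selection cannot be told apart from ZMYND8 overexpression.

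Sympathetic neuroblasts and chromaffin cells arise from the neural crest under a small circuit of transcription factors that bind one another's regulatory regions. In neuroblastoma the same factors sit in a core regulatory circuit that holds the adrenergic cell state, which can interconvert with a mesenchymal state. PHOX2A and ISL1 are homeodomain factors, HAND2 is a basic helix-loop-helix factor that binds E-boxes, GATA2 and GATA3 are zinc finger factors that bind GATA motifs, TBX2 is a T-box factor, TFAP2B is an AP-2 factor and INSM1 is a zinc finger repressor of neuroendocrine cells. Retinoic acid drives differentiation of many neuroblastoma lines. ZMYND8 is a chromatin reader of histone marks.

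Counts on genes totalled 38316523 to 56256979 per library. ZMYND8 itself, which checks the labels, stood at 72.7 and 69.9 CPM in parental cells and 4102 and 4155 CPM in ZMYND8 OE, where CPM is the read count scaled to library size by the trimmed mean of M-values (TMM). It stood at 59.5 and 61.0 CPM in the KD control libraries and at 31.3 and 31.5 CPM in the ZMYND8 KD libraries, a log2 fold change of -0.94 (SE 0.056, adjusted p = 2.20e-06 by edgeR's quasi-likelihood test). All 8 N-type marker genes had a mean above 1 CPM in every group. SOX10, a defining Schwann cell gene, was at 0.0235 CPM at most.

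All of the factor genes but INSM1 were detected in every library. GATA2, TFAP2B and HAND2 rose the most in ZMYND8 OE cells, by 16.0-fold, 11.8-fold and 3.52-fold. GATA3, PHOX2A and ISL1 rose by 1.77-fold, 1.54-fold and 1.33-fold. TBX2 fell by 1.24 on the log2 scale, against the direction of the other 6. In ZMYND8 KD cells, TBX2, GATA2, PHOX2A and HAND2 fell by smaller amounts, and no factor rose.

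The promoters of the 3 genes with the largest rise are printed here so that their letters can be set beside the values, as the 250 bases before the RefSeq transcription start in GRCh38.p14, read 5′ to 3′ on the gene's strand. Capitals mark matches on either strand to GATAA (the core read by GATA factors), CANNTG (the E-box of HAND2 and its relatives) and GCCNNNGGC (the AP-2 motif). GATA2 has a distal and a proximal start.
HAND2, chr4:173530230-173530479, minus strand: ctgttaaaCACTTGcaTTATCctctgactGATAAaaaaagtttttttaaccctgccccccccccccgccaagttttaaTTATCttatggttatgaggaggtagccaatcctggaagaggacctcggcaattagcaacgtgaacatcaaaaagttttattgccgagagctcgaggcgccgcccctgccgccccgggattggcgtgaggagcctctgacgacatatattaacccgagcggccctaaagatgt
GATA2 distal, chr3:128493202-128493451, minus strand: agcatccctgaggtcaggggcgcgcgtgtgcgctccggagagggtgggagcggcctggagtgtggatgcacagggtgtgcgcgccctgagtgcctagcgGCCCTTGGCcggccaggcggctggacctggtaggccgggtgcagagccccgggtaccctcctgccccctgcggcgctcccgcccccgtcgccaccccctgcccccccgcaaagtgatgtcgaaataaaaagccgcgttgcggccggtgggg
GATA2 proximal, chr3:128488531-128488780, minus strand: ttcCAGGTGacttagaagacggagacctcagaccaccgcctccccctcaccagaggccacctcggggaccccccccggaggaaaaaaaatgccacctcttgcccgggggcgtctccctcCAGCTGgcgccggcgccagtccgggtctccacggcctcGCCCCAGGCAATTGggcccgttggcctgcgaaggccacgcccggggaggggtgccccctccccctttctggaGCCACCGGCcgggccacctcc
TFAP2B, chr6:50818621-50818870, plus strand: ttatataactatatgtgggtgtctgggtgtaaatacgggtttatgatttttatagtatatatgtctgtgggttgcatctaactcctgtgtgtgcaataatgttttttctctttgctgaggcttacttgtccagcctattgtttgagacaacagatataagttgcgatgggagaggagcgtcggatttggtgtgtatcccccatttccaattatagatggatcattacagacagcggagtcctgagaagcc
The HAND2 window held 3 GATAA matches, 1 E-box and 1 match to TAATTA (a homeodomain core), which overlaps a GATAA match and is otherwise in lower case. The distal GATA2 window held 1 AP-2 match and, in lower case, 1 match to AGGTCA, the half-site of retinoid receptors. The proximal GATA2 window held 3 E-boxes and 2 AP-2 matches, and 1 of the E-boxes overlaps an AP-2 match by 1 base. The TFAP2B window held none of these, and no match to GGTGTGA (a T-box core). Of 35116 promoter windows of the same length, 20.4% held GATAA, 61.8% an E-box, 19.8% the AP-2 motif, 12.1% AGGTCA, 4.35% TAATTA and 2.76% GGTGTGA. These matches are letters in a window, and binding was not measured. RefSeq windows were found for 6 of the 8 genes.

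GATA2 (ENSG00000179348, chromosome 3, 128479427 to 128493201, minus strand) encodes a GATA factor of early sympathetic precursors. Its RNA stood at 22.4 and 21.9 CPM in the parental libraries, 345.0 and 360.3 in ZMYND8 OE, 168.1 and 181.4 in KD control, and 115.6 and 129.1 in ZMYND8 KD. Both ZMYND8 OE libraries lay above all others, both parental libraries lay below all others, and no pair of groups overlapped. The log2 fold change was 4.0 in ZMYND8 OE against parental (SE 0.056, adjusted p = 1.72e-11) and -0.51 in ZMYND8 KD against KD control (SE 0.063, adjusted p = 2.51e-04).

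TFAP2B (ENSG00000008196, chromosome 6, 50818723 to 50847619, plus strand) encodes an AP-2 factor linked to noradrenergic differentiation. It stood at 6.64 and 7.06 CPM in the parental libraries, 72.4 and 88.7 in ZMYND8 OE, 54.7 and 70.0 in KD control, and 50.9 and 60.1 in ZMYND8 KD. The parental libraries lay below the other 6, and the ranges of KD control and ZMYND8 KD overlapped. TFAP2B had a log2 fold change of 3.56 in ZMYND8 OE (SE 0.103, adjusted p = 7.06e-10). In ZMYND8 KD it was -0.17 and did not pass (95% interval of the log2 fold change by the normal approximation -0.38 to 0.04, adjusted p = 0.298). Without KD control replicate 2 the latter value was 0.02, and without KD control replicate 1 or ZMYND8 KD replicate 2 it was -0.34 or -0.29 and passed.

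HAND2 (ENSG00000164107, chromosome 4, 173524969 to 173530229, minus strand) encodes a helix-loop-helix factor needed for noradrenergic differentiation of sympathetic neurons. Its levels were 110.0 and 109.8 CPM in the parental libraries, 373.6 and 395.2 in ZMYND8 OE, 233.7 and 243.5 in KD control, and 186.6 and 214.1 in ZMYND8 KD. The groups did not overlap. HAND2 rose by 1.82 on the log2 scale in ZMYND8 OE (SE 0.051, adjusted p = 5.77e-10) and had a log2 fold change of -0.25 in ZMYND8 KD (SE 0.065, adjusted p = 0.0181). The knockdown value did not pass without KD control replicate 2 (-0.22, adjusted p = 0.119), without ZMYND8 KD replicate 1 (-0.16, adjusted p = 0.117) or with no filter on low counts (-0.24, adjusted p = 0.0903). HAND2-AS1 lies opposite 24.1% of the exon bases of HAND2, and since the strand setting of the counting is not stated, reads in that part cannot be assigned to 1 strand.

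**Figure D1:**
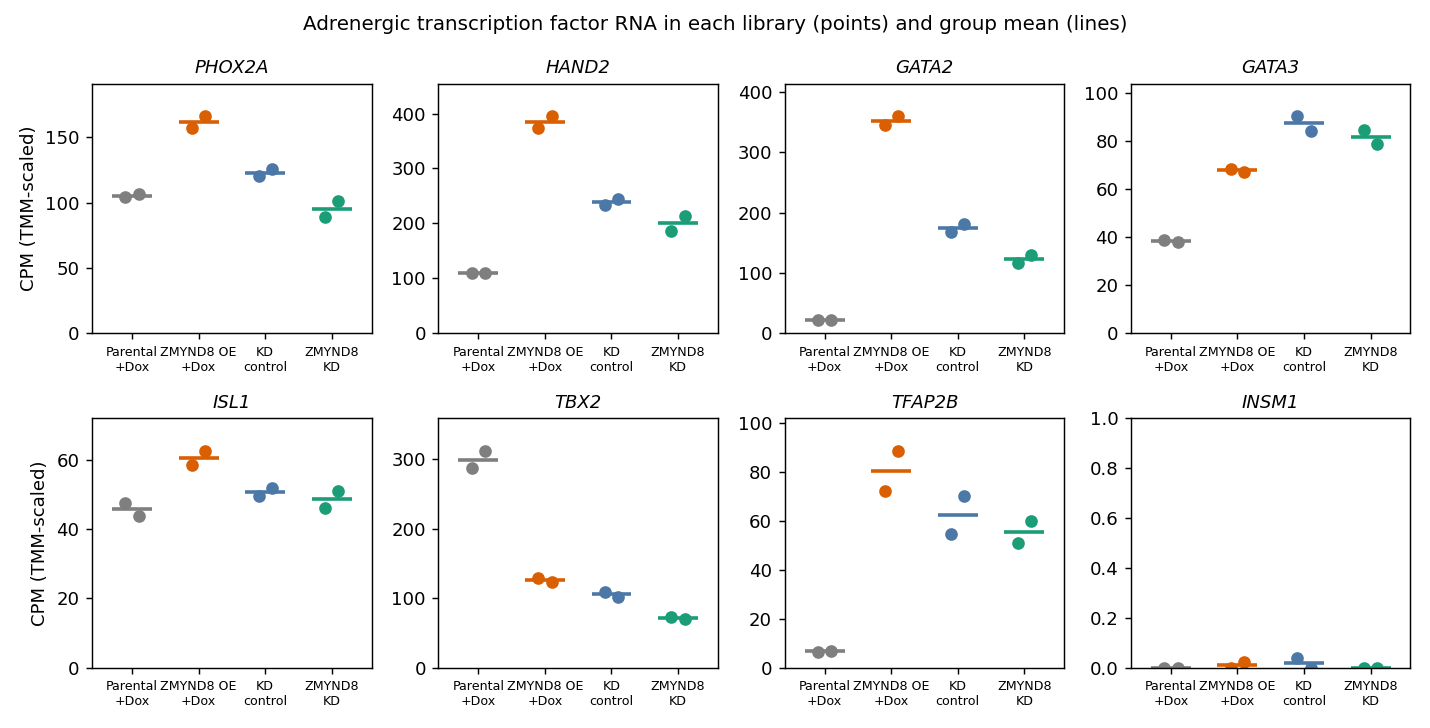
CPM (TMM-scaled, linear axis from 0) of each of the 8 genes in each library, with points for replicates and lines for group means. GATA2, HAND2 and TFAP2B are lowest in the 2 parental libraries and highest in the 2 ZMYND8 OE libraries, TBX2 is highest in the parental libraries, and INSM1 is at or near 0 throughout.

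GATA3 (ENSG00000107485, chromosome 10, 8045378 to 8075198, plus strand), which maintains sympathetic neurons and chromaffin cells, stood at 38.9 and 38 CPM in the parental libraries, 68.4 and 66.9 in ZMYND8 OE, 90.3 and 84.3 in KD control, and 84.4 and 78.5 in ZMYND8 KD. GATA3 was highest in the libraries of the knockdown experiment, whose groups overlapped. It rose by 0.82 on the log2 scale in ZMYND8 OE (SE 0.051, adjusted p = 2.07e-07), and its value of -0.10 in ZMYND8 KD did not pass (interval -0.21 to 0.02, adjusted p = 0.265).

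PHOX2A (ENSG00000165462, chromosome 11, 72239077 to 72245664, minus strand) encodes a homeodomain activator of the dopamine beta-hydroxylase gene. It stood at 104.4 and 106.5 CPM in the parental libraries, 157.5 and 166.3 in ZMYND8 OE, 120.6 and 125.6 in KD control, and 88.7 and 101.4 in ZMYND8 KD. Each experiment's groups were apart. PHOX2A rose by 0.63 on the log2 scale in ZMYND8 OE (SE 0.050, adjusted p = 1.53e-06) and fell by 0.37 in ZMYND8 KD (SE 0.063, adjusted p = 0.00182). INPPL1, on the opposite strand, shares 71 exon bases with PHOX2A and stood at 228.0 to 275.1 CPM in the overexpression experiment. With the counts of both genes summed, the overexpression value was 0.10 and did not pass (adjusted p = 0.144), and after correcting for the length and GC content of genes PHOX2A had 0.20 (adjusted p = 0.00506).

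ISL1 (ENSG00000016082, chromosome 5, 51383448 to 51394730, plus strand), a LIM homeodomain factor of sympathetic neurons, stood at 47.7 and 43.8 CPM in the parental libraries, 58.4 and 62.6 in ZMYND8 OE, 49.4 and 51.8 in KD control, and 46.1 and 51.1 in ZMYND8 KD. It was highest in ZMYND8 OE, and ZMYND8 KD overlapped both parental and KD control. ISL1 rose by 0.41 on the log2 scale in ZMYND8 OE (SE 0.060, adjusted p = 1.49e-04). Its value in ZMYND8 KD was -0.06 (interval -0.18 to 0.07, adjusted p = 0.568).

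TBX2 (ENSG00000121068, chromosome 17, 61399843 to 61409466, plus strand), a T-box repressor, stood at 287.6 and 312.4 CPM in the parental libraries, 129.7 and 123.3 in ZMYND8 OE, 109.6 and 102.0 in KD control, and 73.7 and 70.9 in ZMYND8 KD. The parental libraries lay above all others and the ZMYND8 KD libraries below all others. TBX2 fell by 1.24 on the log2 scale in ZMYND8 OE (SE 0.058, adjusted p = 2.16e-08) and by 0.55 in ZMYND8 KD (SE 0.054, adjusted p = 5.92e-05). It was lower in both experiments than in the control of each.

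INSM1 (ENSG00000173404, chromosome 20, 20368104 to 20370949, plus strand) had 3 counts over all libraries, 2 of them in KD control replicate 1 and 1 in ZMYND8 OE replicate 2. It had 0 counts in 6 libraries and was not tested. A count of 0 in a library as small as the smallest would allow up to 3 counts, by counting error only. That is 0.0783 CPM before TMM scaling. The smallest library, ZMYND8 OE replicate 2, itself held the 1 count given above. INSM2, its paralog, had 461 and 527 counts in ZMYND8 OE against 1 in each parental library. The ratio of its summed CPM in ZMYND8 OE to parental was 475, with an exact 95% interval of 131 to 3932 that covers counting error only.

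Of the 7 tested factors, 6 passed at an adjusted p below 0.05 in the higher direction in ZMYND8 OE and 1 in the lower. Of all 20835 genes tested in that comparison 60.8% passed, 31.7% higher and 29.1% lower. When the log2 fold change also had to reach 1 in size and the mean normalized count had to exceed 20, GATA2, TFAP2B and HAND2 were called higher and TBX2 lower, beside 18.6% of all genes, 11.8% higher and 6.84% lower. The median log2 fold change was 0.82 over the 7 factors and 0.03 over all genes.

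In ZMYND8 KD, 4 of the 7 factors passed, all lower, beside 24.3% of all 19789 genes tested, 13.4% higher and 10.8% lower. By edgeR's quasi-likelihood test 0 factors were called, beside 1.96% of all genes, 1.36% higher and 0.596% lower, and DESeq2 also called 0. The 4 factors that passed had log2 fold changes smaller in size than the threshold of 1. The median log2 fold change was -0.25 over the factors and -0.01 over all genes. The overexpression effect exceeded the knockdown effect for 6 of the 7 factors, which passed in the test of the difference itself, and TBX2 passed with the opposite sign. Of all 22619 genes 49% passed that test, 24.6% with the higher and 24.4% with the lower sign. At the thresholds on fold and mean GATA2, TFAP2B and HAND2 were called for the difference, beside 18.8% of all genes, 11.1% higher and 7.66% lower.

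**Figure D2:**
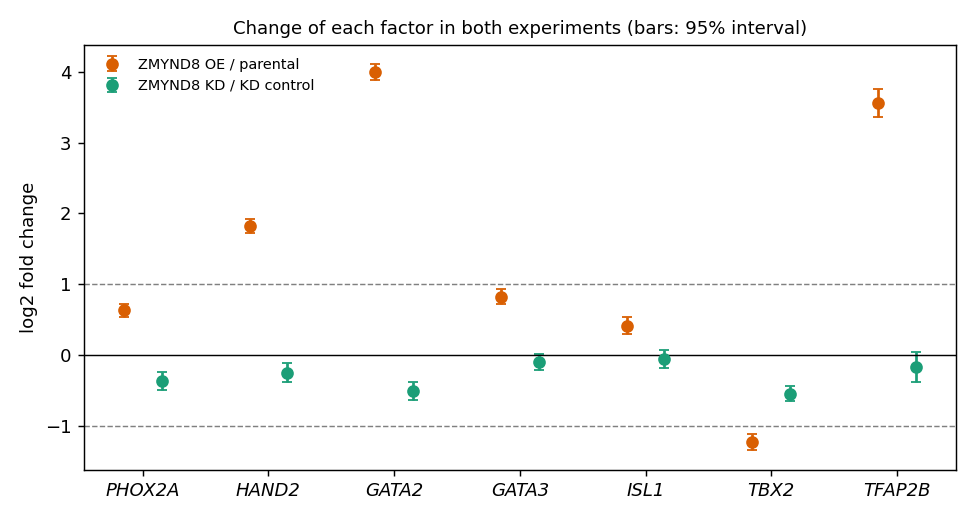
Log2 fold change of the 7 tested factors in ZMYND8 OE against parental (orange) and ZMYND8 KD against KD control (green), with bars of the 95% interval and dashed lines at an absolute value of 1. GATA2 at 4.0, TFAP2B at 3.56, HAND2 at 1.82 and TBX2 at -1.24 lie past the dashed lines in ZMYND8 OE, and no value does in ZMYND8 KD.

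The N-type markers rose and the S-type markers fell in ZMYND8 OE, where all tested factors but TBX2 rose. GATA2, HAND2, TFAP2B, PHOX2A and ISL1 were highest in ZMYND8 OE, whereas the N-type markers were highest in sum in KD control. The summed CPM of the 8 N-type markers was 165 and 167 in the parental libraries, 921 and 976 in ZMYND8 OE, 1501 and 1633 in KD control, and 1183 and 1418 in ZMYND8 KD. In ZMYND8 OE 8 of 8 rose, with NEFL, a neurofilament gene, at a log2 fold change of 4.66 and PHOX2A lowest at 0.63. PHOX2A is itself in that list. The summed CPM of the 8 S-type markers was 14412 and 15296 in the parental libraries, 4888 and 4939 in ZMYND8 OE, 5638 and 5524 in KD control, and 7428 and 7082 in ZMYND8 KD. In ZMYND8 OE 8 of 8 S-type markers fell, from -2.55 for CD44, a surface receptor of mesenchymal cells, to -0.91 for VIM, the filament protein vimentin. In ZMYND8 KD 5 of the N-type markers fell and 6 of the S-type markers rose, with PRRX1 falling by 0.98. Among all genes tested, 31.7% passed higher and 29.1% lower in ZMYND8 OE. In ZMYND8 KD 13.4% passed higher and 10.8% lower. In bulk RNA, fewer cells of a type and less RNA per cell cannot be told apart, and the part of cell makeup in the factors' changes was not tested. The summed CPM of the 4 Schwann markers was 1.32 to 3.61 per library. S100B among them rose in ZMYND8 OE by 3.14 on the log2 scale. Of 4 proliferation genes 3 fell in ZMYND8 OE, by at most 0.36 for CCNB1.

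Levels were compared between factors per exon kilobase (RPKM). PHOX2A led in the parental libraries, with 59.1 ± 0.819 RPKM (SD, n = 2), followed by TBX2 with 49.3 ± 2.88 and HAND2 with 30.5 ± 0.0271. GATA2 had 4.96 ± 0.0735 and TFAP2B 1.11 ± 0.0488 there. In ZMYND8 OE, HAND2 led with 107 ± 4.24 RPKM, before PHOX2A with 90.7 ± 3.50 and GATA2 with 78.8 ± 2.41. In KD control PHOX2A had 69.0 ± 1.98 RPKM and HAND2 66.3 ± 1.93, and in ZMYND8 KD they had 53.3 ± 5.02 and 55.6 ± 5.40.

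The summed RPKM of the factors was 171 and 174 in the parental libraries, 343 and 360 in ZMYND8 OE, 241 and 250 in KD control, and 189 and 208 in ZMYND8 KD. The makeup of that sum differed most between parental cells and the rest. TBX2 made up 28.6% of it in parental cells and 5.92% to 7.09% in the other groups. GATA2 made up 2.87% in parental cells, 22.4% in ZMYND8 OE, 15.9% in KD control and 13.8% in ZMYND8 KD. The ratio of GATA2 to GATA3 RPKM was 0.437 and 0.438 in the parental libraries, 3.83 and 4.09 in ZMYND8 OE, 1.41 and 1.63 in KD control, and 1.04 and 1.25 in ZMYND8 KD. GATA2 was thus below GATA3 in the parental libraries and above it in the other 6. The ratio of PHOX2A to HAND2 RPKM was 1.92 and 1.96 in parental cells but 0.850 and 0.849 in ZMYND8 OE.

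**Figure D3:**
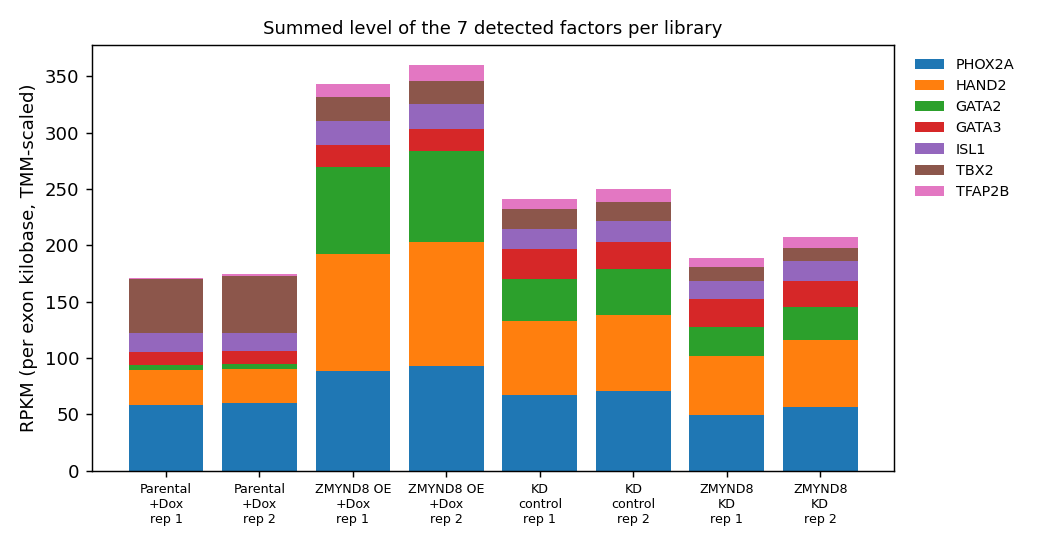
Stacked RPKM (linear axis from 0) of the 7 detected factors in each library, in the order parental, ZMYND8 OE, KD control and ZMYND8 KD. The sum is lowest in the parental libraries at 171 and 174 and highest in ZMYND8 OE at 343 and 360, and TBX2 takes its largest share in the parental libraries.

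The order of the 4 groups was tested in a fit over all 8 libraries. The experiments differ in Dox, vector and control, and possibly in culture and date, which cannot be told apart. KD control cells differed from parental cells in the same factors. TFAP2B was 3.18 higher on the log2 scale in KD control than in parental cells (adjusted p = 4.13e-11), GATA2 2.98 higher (adjusted p = 7.12e-14), GATA3 1.18 higher, HAND2 1.12 higher and PHOX2A 0.22 higher (adjusted p = 0.00536), and TBX2 had -1.50 (adjusted p = 1.43e-11). ISL1, at 0.15, did not pass (adjusted p = 0.0611). Hence 6 of 7 factors passed, 5 higher and 1 lower, beside 65% of all 22619 genes, 31.2% higher and 33.9% lower. At the thresholds on fold and mean 4 were called higher and TBX2 lower, beside 19.5% of all genes, 9.65% higher and 9.84% lower. The KD control level of GATA3 exceeded that of ZMYND8 OE, whereas for GATA2, HAND2, TFAP2B, PHOX2A and ISL1 the ZMYND8 OE level was the highest of the 4.

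Neighbours in the order that did not pass were ZMYND8 KD and KD control for GATA3 (adjusted p = 0.229), TFAP2B (adjusted p = 0.318) and ISL1 (adjusted p = 0.582), and parental and ZMYND8 KD for ISL1 (adjusted p = 0.254). For PHOX2A, ZMYND8 KD lay below parental by 0.15 (adjusted p = 0.0451), which did not pass with RLE normalization (adjusted p = 0.0699) or upper quartile normalization (adjusted p = 0.130). All other neighbours passed. For TBX2 the order from low to high was ZMYND8 KD, KD control, ZMYND8 OE and parental.

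Several factor genes have a lncRNA named for them that starts on the opposite strand. GATA2-AS1 rose from 3.15 and 2.50 CPM in parental cells to 15.7 and 14.2 CPM in ZMYND8 OE, a log2 fold change of 2.42 (SE 0.131, adjusted p = 6.99e-08). In ZMYND8 KD, where GATA2 had -0.51, GATA2-AS1 had 0.08 and did not pass (adjusted p = 0.601). GATA2-AS1 shares no exon base with GATA2.

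HAND2-AS1 stood at 138.7 and 134.4 CPM in the parental libraries, 319.6 and 357.0 in ZMYND8 OE, 130.6 and 150.9 in KD control, and 109.0 and 119.4 in ZMYND8 KD. Its value in KD control against parental was 0.04 (adjusted p = 0.616), where HAND2 itself had 1.12. In ZMYND8 KD it fell by 0.30 (adjusted p = 0.0125). The other RNAs followed the sign of their partner in ZMYND8 OE, with GATA3-AS1 at 1.07, ISL1-DT, which starts 116 bases from ISL1, at 0.61 and TBX2-AS1 at -0.45 (adjusted p = 0.00558). In ZMYND8 KD these 3 did not pass.

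**Figure D4:**
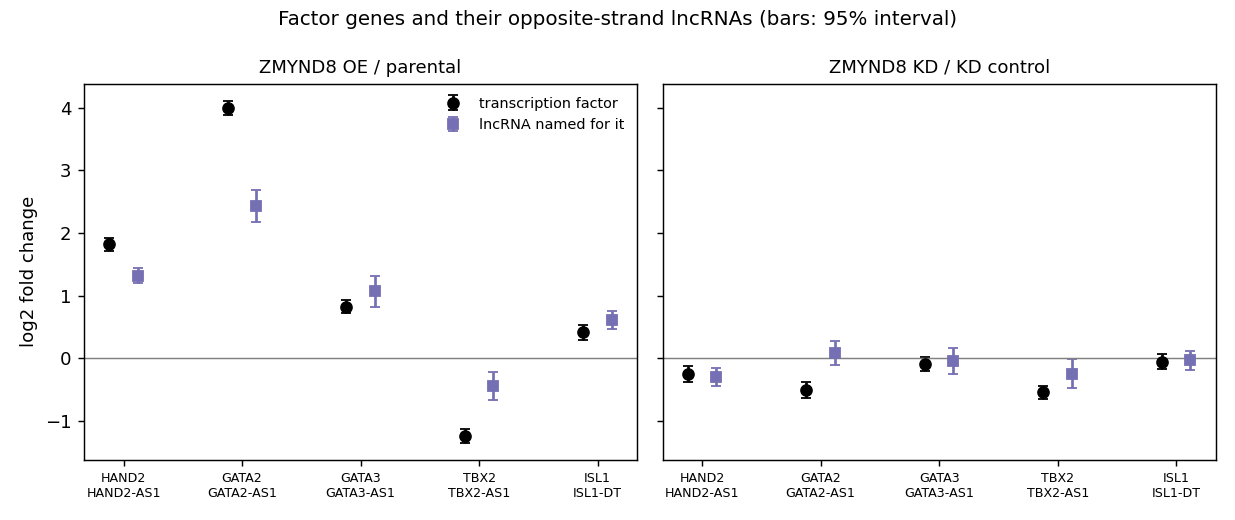
Log2 fold changes of 5 factor genes (black circles) and the lncRNA named for each (purple squares) in ZMYND8 OE against parental (left) and ZMYND8 KD against KD control (right), with bars of the 95% interval. In ZMYND8 OE each pair lies on the same side of 0, with GATA2 at 4.0 and GATA2-AS1 at 2.42, and in ZMYND8 KD GATA2-AS1 lies at 0.08 while GATA2 lies at -0.51.

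Within 100 kb of the 8 factor genes lay 50 other genes, of which 21 were tested in ZMYND8 OE. Of these 11 rose, 6 fell and 8 were called, beside 31.7% higher, 29.1% lower and 18.6% called of all genes tested. Some of the 11, TMED10P2, CFAP61 and ENSG00000288035 among them, had few parental counts. They passed the filter on low counts only through ZMYND8 OE, so they could be tested only if higher. Around TBX2, 4 of 6 tested neighbours fell and none rose, among them TBX4, a T-box gene 42.9 kb away, at -1.29, LINC02875 at -1.05 and ENSG00000267131 at -1.31. BCAS3, 7.0 kb from TBX2, had -0.13 and did not pass (adjusted p = 0.0832). Next to HAND2, ENSG00000286039 rose by 1.55 on the log2 scale. Of 20 neighbours tested in ZMYND8 KD, TAF3 near GATA3 rose by 0.42, CLPB near PHOX2A fell by 0.57 and HAND2-AS1 fell, and the other 17 did not pass. The share of all genes tested that passed there was 24.3%, with 13.4% higher and 10.8% lower.

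Of 16 paralogs of the factors, 12 were tested in ZMYND8 OE, and 9 rose, 1 fell and 2 did not pass. Of all genes tested 31.7% passed higher and 29.1% lower. GATA5, GATA6, TBX5, TFAP2A and INSM2 had 0 or 1 count in each parental library. They passed the filter on low counts only through ZMYND8 OE, so they could be tested only if higher. HAND1 had a log2 fold change of 4.51 and GATA4 had 4.53. GATA6 had 241 and 167 counts in ZMYND8 OE against 0 in either parental library, which is at least 64-fold higher against 3 counts per library. GATA5 was at least 12-fold and TBX5 at least 6-fold higher on the same basis. TFAP2A had 1 parental count and a CPM ratio of 43.3 (counting interval 7.39 to 1748). TBX3, closest to TBX2 among the T-box genes, rose by 0.94 while TBX2 fell. TBX4 fell, and ISL2 at -0.22 (adjusted p = 0.188) and TFAP2E at 0.19 (adjusted p = 0.566) did not pass. The median over the 12 was 4.84, and 4.06 with the 3 genes at 0 in the parental libraries set at their bound. Both medians include the genes that passed the filter only through ZMYND8 OE. In ZMYND8 KD 1 of 8 tested paralogs passed, HAND1 at -0.23 (adjusted p = 0.0257), beside 24.3% of all genes tested.

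Among 15 other adrenergic factors 14 rose in ZMYND8 OE and KLF7, a Krüppel-like factor, fell by 0.35, with a median log2 fold change of 3.34. Of all genes tested 31.7% passed higher and 29.1% lower. Some of the 14, LMO3 and MYCN among them, had few parental counts and passed the filter on low counts only through ZMYND8 OE. LMO3, a LIM-only cofactor, had the largest value, 7.38, from 5 and 3 parental counts to 753 and 664 counts in ZMYND8 OE. Of the 12 called genes, all of them higher, HAND1, ZNF536, MYCN, SIX3, DACH1, LMO1, KLF13, SATB1 and SOX11 are named here besides LMO3. Among all genes tested, 11.8% were called higher and 6.84% lower. In ZMYND8 KD 13 were tested, and SOX11 (0.48), KLF7 and SATB1 rose while HEY1 (-0.37), ZNF536 and HAND1 fell. The median was -0.12. Over all genes tested in ZMYND8 KD, 13.4% passed higher and 10.8% lower.

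Of 10 genes of catecholamine and chromaffin function, downstream of these factors, 9 were tested in ZMYND8 OE and 9 rose, with a median log2 fold change of 2.73. Of all genes tested 31.7% passed higher. Some of the 9, SLC18A2 among them, had few parental counts and passed the filter on low counts only through ZMYND8 OE. RET, the GDNF family receptor, had the largest at 4.12, SLC18A2, a vesicular monoamine transporter, the smallest at 1.68, and DBH, which makes noradrenaline, had 2.25. TH, the rate-limiting enzyme of catecholamine synthesis, had 0 to 5 counts per library and was not tested. In ZMYND8 KD 5 of 8 tested fell, with DBH at -0.86 (adjusted p = 1.02e-04) and RET at -0.53, and CHGA at 0.96 did not pass (adjusted p = 0.160). Over all genes tested in ZMYND8 KD, 10.8% passed lower and 13.4% higher.

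Of 20 mesenchymal state factors 18 were tested in ZMYND8 OE. Of these 16 fell, from RUNX2 at -2.50 and PRRX1 at -2.39 to MAFF at -0.29. Over all genes tested, 29.1% passed lower and 31.7% higher, and 6.84% were called lower. Among the others called lower were FOSL1, TBX18, RUNX1, WWTR1, SIX4, SMAD3 and SOX9. EGR3 at 2.17 and TWIST1 at 1.31 rose. TBX2, with -1.24, lay within the range of those that fell. In ZMYND8 KD 4 rose, led by FOSL1 at 0.67, and 3 fell, led by PRRX1 at -0.98, with a median near 0. The shares of all genes tested in ZMYND8 KD were 13.4% higher and 10.8% lower.

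**Figure D5:**
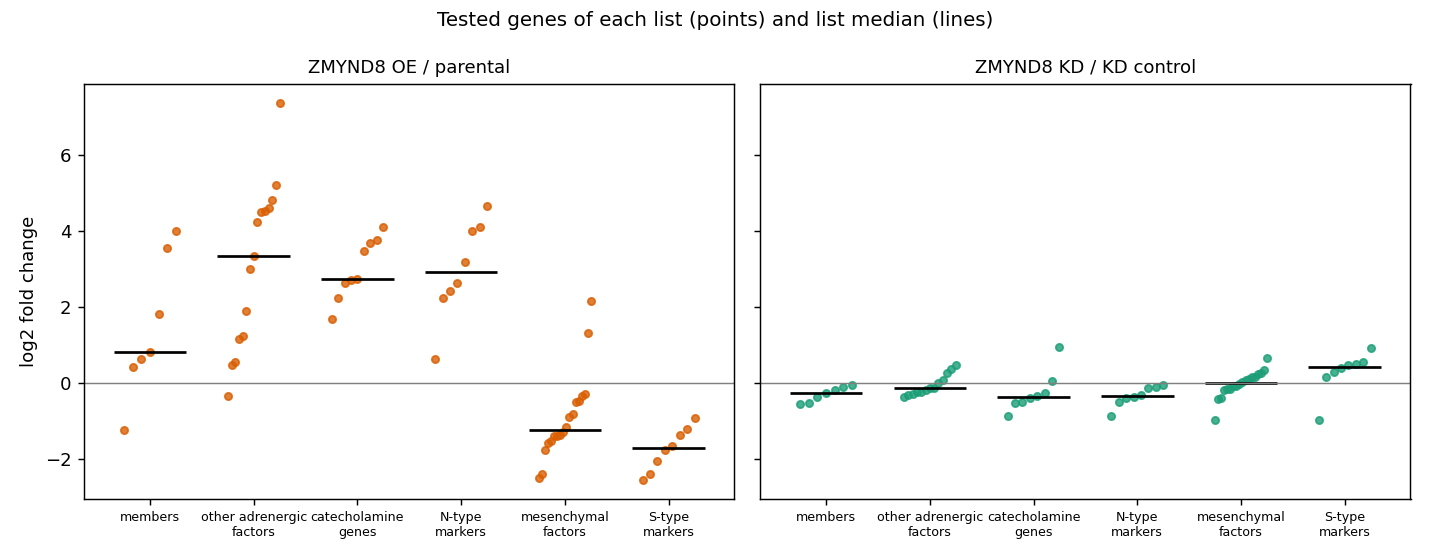
Log2 fold changes of the tested genes of 6 lists (points, sorted within each list) with the list median (line), in ZMYND8 OE against parental (left) and ZMYND8 KD against KD control (right); PHOX2A, DBH, CHGB and PRRX1 are each in more than 1 list. In ZMYND8 OE the medians of the factors, other adrenergic factors and N-type markers lie at 0.82, 3.34 and 2.91 and those of mesenchymal factors and S-type markers at -1.23 and -1.71, and in ZMYND8 KD the values lie between -1 and 1.

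The genes whose profile over the 8 libraries lay nearest to each factor were found among 12694 protein-coding genes, by the root mean square difference of centred log2 CPM. They are a description, since the libraries share their groups. RET was nearest to GATA2, at 0.081, followed by FAM222A and RIMS4. RTN2, FOS and GNAZ were nearest to HAND2, and C7, MAOB and ICA1 to TFAP2B. The nearest to PHOX2A were RBMXL1, ZNF90 and ZNF607, to GATA3 UBE2D4, C18orf32 and RAC3, to ISL1 IFNGR1, MKKS and GSTA4, and to TBX2 MCTP1, STARD8 and MAN1A1. Among the factors themselves PHOX2A and ISL1 were the closest pair, at 0.169, then GATA2 and TFAP2B at 0.370, and TFAP2B and TBX2 were the farthest apart, at 2.11.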

How the data were processed

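RNA-seq counts of 8 libraries were analysed. The values the authors deposited are raw counts of reads per gene. Their methods name Trim_Galore for trimming, Hisat2 for alignment to GRCh38, and featureCounts with GENCODE release 28 for counting. The strand setting is not given in the sources used here. Of 60662 lines, 3 of 1 split gene were left out. Symbols came from GENCODE release 44, which held 60462 of 60659 identifiers. Coordinates are those of the table.

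Genes were filtered with filterByExpr, scaled by TMM and tested two-sided with edgeR 4.0.16 (limma 3.58.1, R 4.3.3), each comparison on its own 4 libraries, with Benjamini-Hochberg adjustment over all genes. Genes were called where the adjusted p was under 0.05, the log2 fold change was 1 or more in size and the mean normalized count was over 20. The thresholds follow the methods, with the adjusted p in place of the p-value. The difference of effects and the order of groups came from 1 fit of all libraries. SE is the log2 fold change over the root of the F statistic. RPKM used summed exon length. Named were the 8 factors, their paralogs, their neighbours within 100 kb, called or extreme genes of each list and the 3 nearest profiles. A few genes of the lists are not reported here by name. The members and lists were chosen with earlier results of these data known. Replicates differed beyond counting noise (chi-square per degree of freedom 5.52 to 7.97). Counts set a precision that covers counting error only. The p-values rest on the spread between 2 libraries a group, which edgeR moderates with that of the other genes tested. On simulated counts with a dispersion of 0.03, edgeR called 200 of 200 changed genes among 20538 for the overexpression comparison. It called 200 of 200 among 19759 for the knockdown comparison and 192 of 200 among 21711 for the difference. Detection of log2 fold changes as small as those of the factors in ZMYND8 KD was not tested. Alternatives were RLE and upper quartile scaling, DESeq2 1.42.0, no filter, other thresholds, 1 fit of all libraries, a replicate block, a recentred loess correction for length and GC content, thinning to 38316523 counts, antisense partners summed, and leaving out each library.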

Additional observations from a re-analysis of the deposited data

Results flagged for a closer look

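The overexpression effect and the knockdown effect differed for each of the 7 tested factors in the fit of all 8 libraries (edgeR, adjusted over all genes). The overexpression effect minus the knockdown effect, on the log2 scale, was 4.51 for GATA2 (SE 0.091, adjusted p = 1.12e-13), 3.72 for TFAP2B (SE 0.175, adjusted p = 2.10e-10) and 2.06 for HAND2 (SE 0.089, adjusted p = 8.51e-11). It was 0.99 for PHOX2A, 0.91 for GATA3 and 0.46 for ISL1 (adjusted p = 6.81e-04 for ISL1). TBX2 had -0.70 (SE 0.082, adjusted p = 4.71e-06), its fall in ZMYND8 OE being larger than that in ZMYND8 KD. The experiments differ in Dox, vector and control, which cannot be told apart from the direction of the ZMYND8 change, and ZMYND8 itself moved by 5.87 in one and by -0.94 in the other. The value of PHOX2A was 0.49 with the correction for length and GC content and 0.35 with PHOX2A and INPPL1 summed.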

How the results depend on the processing

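Of 98 values of the factors' log2 fold changes in ZMYND8 OE under alternatives, 97 kept direction and side of the threshold. The exception was PHOX2A with INPPL1 summed, at 0.10 (adjusted p = 0.144), a sum in which INPPL1 has the larger count. In ZMYND8 KD 89 of 98 did. HAND2 was -0.24 with no filter and -0.35 to -0.16 when each library was left out. TFAP2B was -0.34 to 0.02 and ISL1 -0.13 to 0.01 when each library was left out, where TFAP2B turned to 0.022 and ISL1 to 0.010. All 119 values of the difference of effects kept direction and an adjusted p below 0.05, but not their side of the fold threshold: 3 factors passed it, PHOX2A joined them with upper quartile normalization (1.06) and without KD control replicate 1 (1.02), parental replicate 2 (1.014), ZMYND8 KD replicate 2 (1.09) or ZMYND8 OE replicate 1 (1.03), and TBX2 with the length and GC correction (-1.05). With the replicate number as a block TFAP2B in ZMYND8 KD was -0.16 and passed (adjusted p = 0.0181), and -0.17 with the block and the length and GC correction (adjusted p = 0.0136). The correlation of same-numbered deviations was 0.0107 in the overexpression and 0.0993 in the knockdown experiment. The labels give only a number, and these values do not settle whether same-numbered libraries were paired. The block moved the called genes from 3876 to 3886 and from 388 to 393. It moved those at an adjusted p below 0.05 from 12663 to 12742 and from 4799 to 6318. With no threshold on fold change the called factors were 7 and 4 and the called genes 11332 and 4707 in ZMYND8 OE and ZMYND8 KD, and with a mean above 100 the called genes were 2331 and 174, as these thresholds set. DESeq2 called 3601 and 270 genes. The cause of the other changes was not tested. The 2 libraries a group and low counts, as for INSM1, limit what could be detected.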
